A study of Arabidopsis thaliana with 4 samples.

Results

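The HRS1 and HHO genes of Arabidopsis thaliana are a family of 7 loci that encode transcription factors of the GARP class. They were taken as the whole family, by locus identifier and with no threshold on a measured value, although earlier results of these data were known when the family was chosen: HHO2 (AT1G68670), HHO3 (AT1G25550), HRS1 (AT1G13300), HHO1 (AT3G25790), HHO5 (AT4G37180), HHO6 (AT1G49560) and HHO4 (AT2G03500). All 7 were present among the 33557 genes of the deposited table. They were read in 4 poly(A)+ RNA sequencing libraries, 1 per genotype: the double mutant hho2phr1, the single mutant hho2-1, the single mutant phr1, and wild-type Col-0. The labels call both single mutants SALK T-DNA insertion lines, so every mutant library rests on 1 insertion allele per gene, and all lines share the Col-0 ecotype. All plants, Col-0 included, were 7 days old and had been kept on vertical agar plates that lacked phosphate. The harvested organ is not stated, and no phosphate-supplied plants are part of the set.

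GARP proteins bind DNA through a single MYB-like domain. HRS1, HHO1, HHO2 and HHO3, here called the HRS1 group and also known as NIGT1 factors, are repressors that nitrate induces through NLP transcription factors, and they connect nitrate supply with the phosphate starvation response. They repress high-affinity nitrate transporter genes as well as genes of their own family. HRS1 takes its name from primary root shortening under low phosphate, and HHO2 has been linked to lateral root growth and phosphate homeostasis. HHO4, also called EFM, represses the flowering signal gene FT, and HHO5, also called UIF1, acts in the floral meristem.

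The family members have a coding exon length in common. This length alone does not identify the family, and whether the exon sequence sets the family apart from other genes was not tested. Every member has a coding exon of exactly 77 bases, a length found in 778 of 27444 nuclear coding genes of the TAIR10.1 annotation (2.83%). It is the exon before the last in all 7 genes, number 4 of 5 in HHO2, HRS1, HHO1, HHO5 and HHO6 and number 3 of 4 in HHO3 and HHO4, and it codes for part of the MYB-like DNA-binding domain. Its sequences are shown because all 7 genes have this stretch at the same length and yet each differs from the others in it. They were read from RefSeq TAIR10.1, whose nuclear chromosomes carry the TAIR10 sequence, at chr1:25783424-25783500 for HHO2, chr1:8977523-8977599 for HHO3, chr1:4558068-4558144 for HRS1, chr3:9414395-9414471 for HHO1, chr4:17505647-17505723 for HHO5, chr1:18343666-18343742 for HHO6 and chr2:1061640-1061716 for HHO4. All 7 genes lie on the plus strand, and the bases are written 5′ to 3′ with the 49 positions identical in all 7 genes in capitals.
HHO2: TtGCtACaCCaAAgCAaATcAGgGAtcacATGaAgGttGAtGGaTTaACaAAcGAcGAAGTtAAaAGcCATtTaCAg
HHO3: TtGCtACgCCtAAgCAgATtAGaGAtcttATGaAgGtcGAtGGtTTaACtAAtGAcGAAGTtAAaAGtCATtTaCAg
HRS1: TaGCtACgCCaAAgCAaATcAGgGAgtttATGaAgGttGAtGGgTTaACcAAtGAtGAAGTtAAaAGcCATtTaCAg
HHO1: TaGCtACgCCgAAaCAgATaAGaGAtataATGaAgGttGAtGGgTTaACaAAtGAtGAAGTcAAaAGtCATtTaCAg
HHO5: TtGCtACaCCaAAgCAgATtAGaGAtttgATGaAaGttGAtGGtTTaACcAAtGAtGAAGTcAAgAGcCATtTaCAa
HHO6: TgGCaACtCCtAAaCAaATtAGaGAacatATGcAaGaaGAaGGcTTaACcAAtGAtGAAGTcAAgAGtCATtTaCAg
HHO4: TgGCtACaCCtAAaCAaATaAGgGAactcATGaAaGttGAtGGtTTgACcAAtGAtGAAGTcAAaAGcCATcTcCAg

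Within this exon HHO2 and HHO3 differ at 12 positions, HHO2 and HRS1 at 10, and HHO2 and HHO6 at 21, the most of any of the 21 pairs. Over whole coding sequences, HRS1 and HHO1 were the most alike pair, with 69.2% identical bases over the alignment, followed by HHO2 and HHO3 with 66.0%. The other 19 pairs lay between 47.3% and 57.5%. Encoded proteins range from 333 residues in HHO6 to 432 in HHO4. The longest run of bases shared exactly by any 2 of the 7 transcripts was 32 bases, between HHO2 and HRS1, and HHO2 and HHO3 share at most 31.

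The upstream sequence differs among the members, in a way that depends on the window searched. NIGT1-type proteins are known to bind the 5-base element GAATC and the 8-base element GAATATTC, and PHR1 binds the element GNATATNC, of which GAATATTC is one spelling. Both strands were searched in the 1000 bases before each TAIR10.1 gene start. This window was chosen after the data had been seen, and the planned window was the nearest 300 bases. GAATATTC was found once in each of HHO2, HHO3, HRS1 and HHO1 and in none of HHO5, HHO6 and HHO4, whereas 775 of 27443 coding genes (2.82%) have it in a window of this length. In the nearest 300 bases it was present in HRS1 and HHO1 only, against 1.02% of all such windows. That window thus does not separate HHO2 and HHO3 from HHO5, HHO6 and HHO4. Each element is shown with 26 bases to either side, on the strand of the gene, with GAATATTC in capitals. On the TAIR10 nuclear sequence, the windows are chr1:25781426-25781485 for HHO2, chr1:8975963-8976022 for HHO3, chr1:4556616-4556675 for HRS1 and chr3:9412888-9412947 for HHO1, all on the plus strand.
HHO2: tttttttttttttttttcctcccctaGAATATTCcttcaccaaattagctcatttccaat
HHO3: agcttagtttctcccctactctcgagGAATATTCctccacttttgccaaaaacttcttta
HRS1: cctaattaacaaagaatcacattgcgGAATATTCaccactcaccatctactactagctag
HHO1: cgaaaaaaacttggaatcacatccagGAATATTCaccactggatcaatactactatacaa

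The element begins at -349 bases from the gene start in HHO2, -337 in HHO3, -236 in HRS1 and -138 in HHO1. The shorter element GAATC was present in the 1000-base window of 6 members, all but HHO6, but 87.8% of coding genes have it there. GNATATNC necessarily matched in the 4 genes that hold GAATATTC, and in no other member, so this is not a second finding. Of coding genes, 20.3% have it. In HHO2 and HRS1 the GAATATTC site was the only match. HHO3 had 1 further match of GNATATNC, at -184, and HHO1 had further matches at -194 and -73. These are matches of letters, and no binding was measured here.

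**Figure D1:**
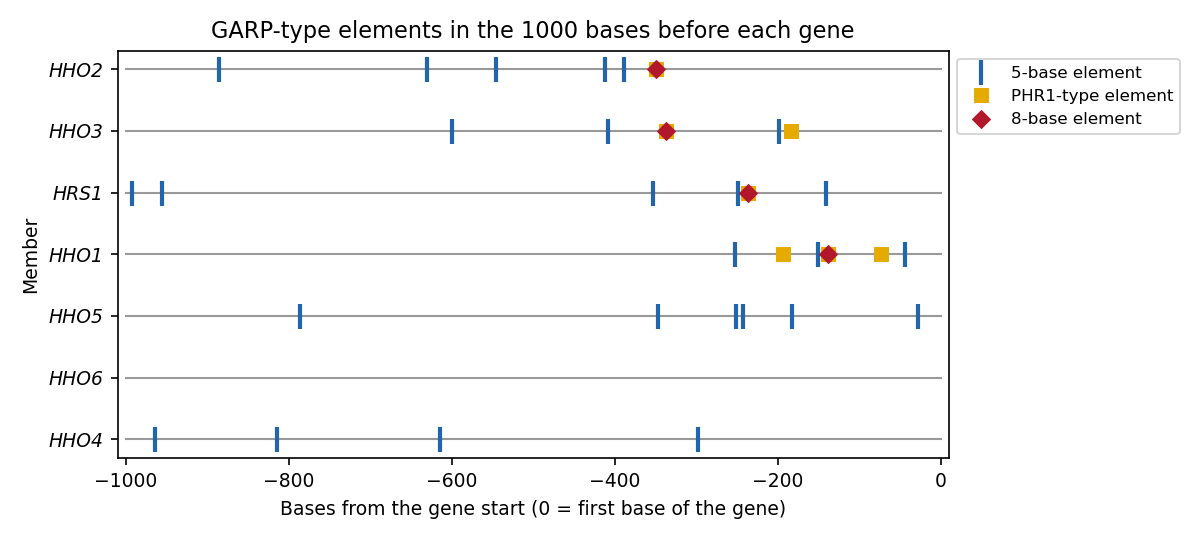
Positions of the 5-base element GAATC (blue ticks), the PHR1-type element GNATATNC (yellow squares) and the 8-base element GAATATTC (red diamonds) in the 1000 bases before each gene, with the x axis in bases from the gene start and 1 line per member. The diamonds stand at -349, -337, -236 and -138 in HHO2, HHO3, HRS1 and HHO1, and the lines of HHO5, HHO6 and HHO4 carry none. The window was chosen after the data had been seen, and only the diamonds of HRS1 and HHO1 lie in the planned 300 bases.

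Levels are the authors' FPKM, read fragments scaled to transcript length and to library size, each with the authors' 95% interval. With 1 library per genotype there is no replicate check of any difference, no p-value is given, and the interval does not measure variation between plants. Estimated depth was 40500000 fragments in hho2phr1, 44700000 in hho2-1, 39200000 in phr1 and 48000000 in Col-0. The mutated genes were lower in their mutants: PHR1 stood at 6.50 FPKM in hho2phr1 against 43.2 FPKM in hho2-1, and at 7.54 FPKM in phr1 against 37.7 FPKM in Col-0. HHO2 is described after the levels of the family. In samples of whole tissue, fewer cells that express a gene and less RNA per cell cannot be told apart.

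All 7 members were expressed in all 4 libraries, over a range from 5.47 FPKM for HHO4 in Col-0 to 186 FPKM for HHO3 in hho2-1. HHO3 was the highest member in every genotype, above 97.1%, 98.0%, 95.5% and 95.8% of all genes in hho2phr1, hho2-1, phr1 and Col-0. In Col-0 the order was HHO3, HHO2, HHO5, HRS1, HHO1, HHO6 and HHO4. The authors' intervals did not separate HHO3 from HHO2, HHO5 from HRS1, or HHO6 from HHO4 in Col-0, and they did separate the other neighbours. The same order held in phr1, with the same 3 pairs overlapping. It also held in hho2-1, where HHO3 stood clear of HHO2, while the intervals of HHO2, HHO5, HRS1 and HHO1 overlapped from neighbour to neighbour, as did those of HHO6 and HHO4. In hho2phr1, HHO5 stood above HHO2, at 53.9 against 51.8 FPKM with overlapping intervals, and HHO1, HHO6 and HHO4 overlapped from neighbour to neighbour.

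**Figure D2:**
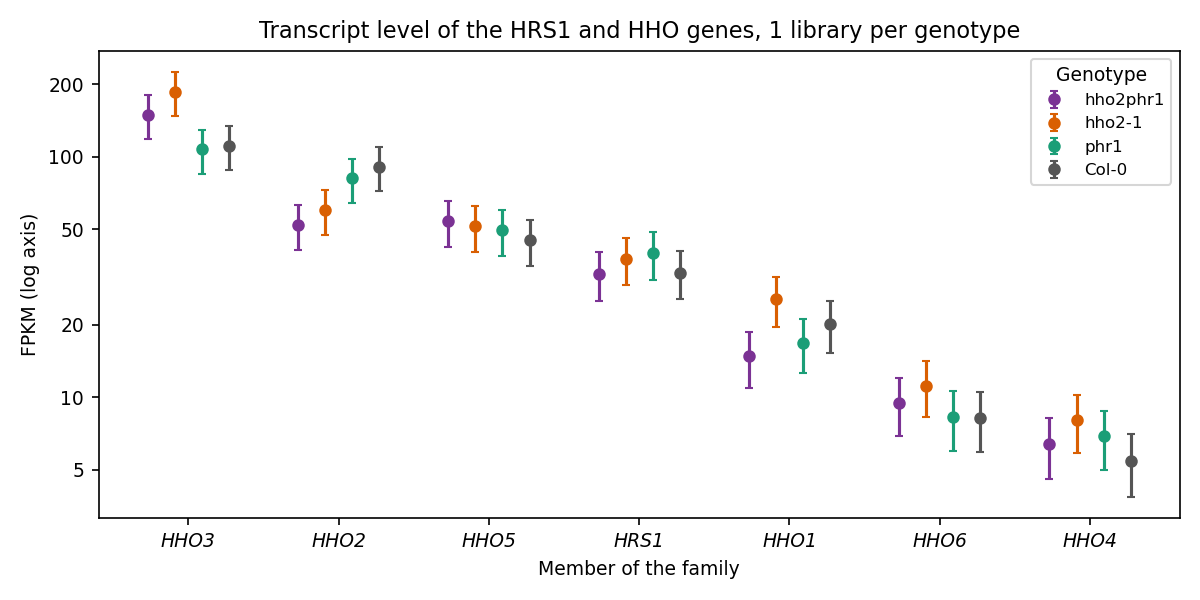
FPKM (log axis) of the 7 members in hho2phr1, hho2-1, phr1 and Col-0, with points for single libraries and bars for the authors' 95% intervals. HHO2 is lower and HHO3 higher in the libraries with the hho2 allele, and HHO1 ranges from 14.8 FPKM in hho2phr1 to 25.7 in hho2-1.

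HHO2 (TAIR10 chromosome 1, 25782029 to 25784076, plus strand) carries the insertion of the hho2 allele. It stood at 51.8 FPKM in hho2phr1, 59.8 in hho2-1, 81.2 in phr1 and 90.7 in Col-0. Both libraries with the hho2 allele were thus below both libraries without it, but more than a trace of transcript remained. The ratio was 0.638 for hho2phr1 against phr1, with intervals of 40.8 to 62.9 and 64.3 to 98.1 FPKM that did not overlap. It was 0.659 for hho2-1 against Col-0, where the intervals of 47.2 to 72.5 and 71.9 to 109.6 FPKM overlapped at their edges. In log2(FPKM + 1) this difference was -0.59, with an interval propagated from the authors' bounds of -1.01 to -0.17. That interval does not measure variation between plants. Gene totals do not show whether this transcript runs through the insertion, whose place in the gene is not given in the sources used here.

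HHO3 (chromosome 1, 8976434 to 8978093) is the member most like HHO2 in coding sequence and the one whose level stood opposite to it. It was at 149 FPKM in hho2phr1, 186 in hho2-1, 107 in phr1 and 111 in Col-0. The 2 libraries with the hho2 allele were the highest for HHO3 and the lowest for HHO2. In hho2-1 against Col-0 the difference in log2(FPKM + 1) was 0.74, with intervals of 147 to 225 and 87.9 to 134 FPKM apart. In hho2phr1 against phr1 it was 0.47, and the intervals of 118 to 180.0 and 85.0 to 129 FPKM overlapped. The interval of this difference propagated from the authors' bounds was 0.05 to 0.89, which does not measure variation between plants. The ratio of HHO3 to HHO2 was 2.88 in hho2phr1, 3.11 in hho2-1, 1.32 in phr1 and 1.22 in Col-0.

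These differences are small in fold, and for HHO3 the share of genes as far out varied with the comparison. Among genes with at least 1 FPKM in either library, 0.678% were at least as far above Col-0 in hho2-1 as HHO3. On the HHO2 side, 1.33% were at least as far below. In hho2phr1 against phr1 the shares were 3.09% as far above as HHO3 and 1.27% as far below as HHO2. They were 5.37% and 1.04% in hho2phr1 against Col-0. The hho2 comparisons in the backgrounds with and without PHR1 share no library, so they can be set against each other. Of 20650 genes with at least 1 FPKM in any library, 100 (0.484%) were higher with the hho2 allele by 0.47 or more in both backgrounds, as HHO3 was. At -0.59 or below in both, as HHO2 was, were 43 genes (0.208%). Both counts include the member itself. Across all genes the 2 backgrounds gave the same direction for 48.6%.

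HRS1 (chromosome 1, 4556892 to 4558708) and HHO1 (chromosome 3, 9413127 to 9415003), the closest pair in sequence, had other orders of libraries than HHO3. HRS1 was at 32.6 FPKM in hho2phr1, 37.5 in hho2-1, 39.7 in phr1 and 33.0 in Col-0, and all its intervals overlapped. It was the steadiest member of the HRS1 group, with a highest-to-lowest ratio of 1.22. HHO1 was at 14.8 FPKM in hho2phr1, 25.7 in hho2-1, 16.8 in phr1 and 20.2 in Col-0. It was highest in hho2-1 and lowest in hho2phr1, a ratio of 1.74, and the intervals of 10.98 to 18.6 FPKM in hho2phr1 and 19.6 to 31.75 FPKM in hho2-1 were apart. Both libraries with the phr1 allele were below both libraries with PHR1 intact for HHO1.

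HHO5, HHO6 and HHO4 lie outside the HRS1 group. HHO5 (chromosome 4, 17504564 to 17506367) was at 53.9 FPKM in hho2phr1, 51.4 in hho2-1, 49.5 in phr1 and 45.0 in Col-0. HHO6 (chromosome 1, 18342554 to 18344363) was at 9.50 FPKM in hho2phr1, 11.2 in hho2-1, 8.30 in phr1 and 8.22 in Col-0. HHO4 (chromosome 2, 1059710 to 1062410) was at 6.38 FPKM in hho2phr1, 8.03 in hho2-1, 6.89 in phr1 and 5.47 in Col-0. For each of the 3 genes the intervals of all 4 libraries overlapped, and Col-0 was the lowest library. The highest was hho2-1 for HHO6 and HHO4 and hho2phr1 for HHO5.

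The range over the 4 libraries on the log2(FPKM + 1) scale was 0.80 for HHO2, 0.79 for HHO3 and 0.76 for HHO1. Between 6.15% and 7.02% of all expressed genes had a range as large as these 3. The range was 0.48 for HHO4, 0.40 for HHO6, 0.28 for HRS1 and 0.25 for HHO5, beside a median of 0.28 over all genes. In terms of fragments, the lowest member value, HHO6 in phr1, rests on about 465 fragments and the highest, HHO3 in hho2-1, on about 12606. Counting error alone would give half-widths of 1.75% to 9.09%, whereas the authors' intervals span 20.7% to 29.1% to each side.

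The first comparison, hho2-1 against Col-0, asks what differed in the family in the hho2 mutant with PHR1 intact. Of the 7 members, 6 were above Col-0 and HHO2 was below, beside 50.3% of all genes above Col-0, with a median difference of 0.34 beside 0.00 over 20341 genes. After HHO3 came HHO4 by 0.48, HHO6 by 0.40 and HHO1 by 0.34, and then HHO5 by 0.19 and HRS1 by 0.18, each with overlapping intervals. A 2-fold difference, a change of at least 1 on the log2 scale, was reached by 0 members, and by 0.88% of all genes. Intervals lay apart for 1 member, HHO3, and for 0.531% of all genes. The differences in this comparison moved with transcript length across the genome: genes under 1000 nucleotides had a median of -0.09 and those of 3500 or more a median of 0.14. The members' transcripts are 1336 to 2100 nucleotides long, and the 3 length classes that hold them had medians between -0.04 and 0.02.

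The second comparison, hho2phr1 against phr1, asks the same where PHR1 was already reduced. Here 3 members were above phr1 and 4 below, beside 48.4% of all genes above phr1, with a median of -0.09 beside -0.01 over 20353 genes. HHO3 was above by 0.47, HHO6 by 0.17 and HHO5 by 0.12, while HHO2 was below by -0.64, HRS1 by -0.28, HHO1 by -0.18 and HHO4 by -0.09. Again 0 members reached 2-fold, as did 1.11% of all genes, and intervals lay apart for 1 member, HHO2, and for 1.09% of all genes. The gap between the HHO2 intervals closed when libraries were rescaled to equal sums. HHO2, HHO3, HHO5 and HHO6 thus had the same sign in both backgrounds, and HRS1, HHO1 and HHO4 had opposite signs. Of all genes, 48.6% had the same sign in both, so the split among the 7 members is near that of all genes.

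**Figure D3:**
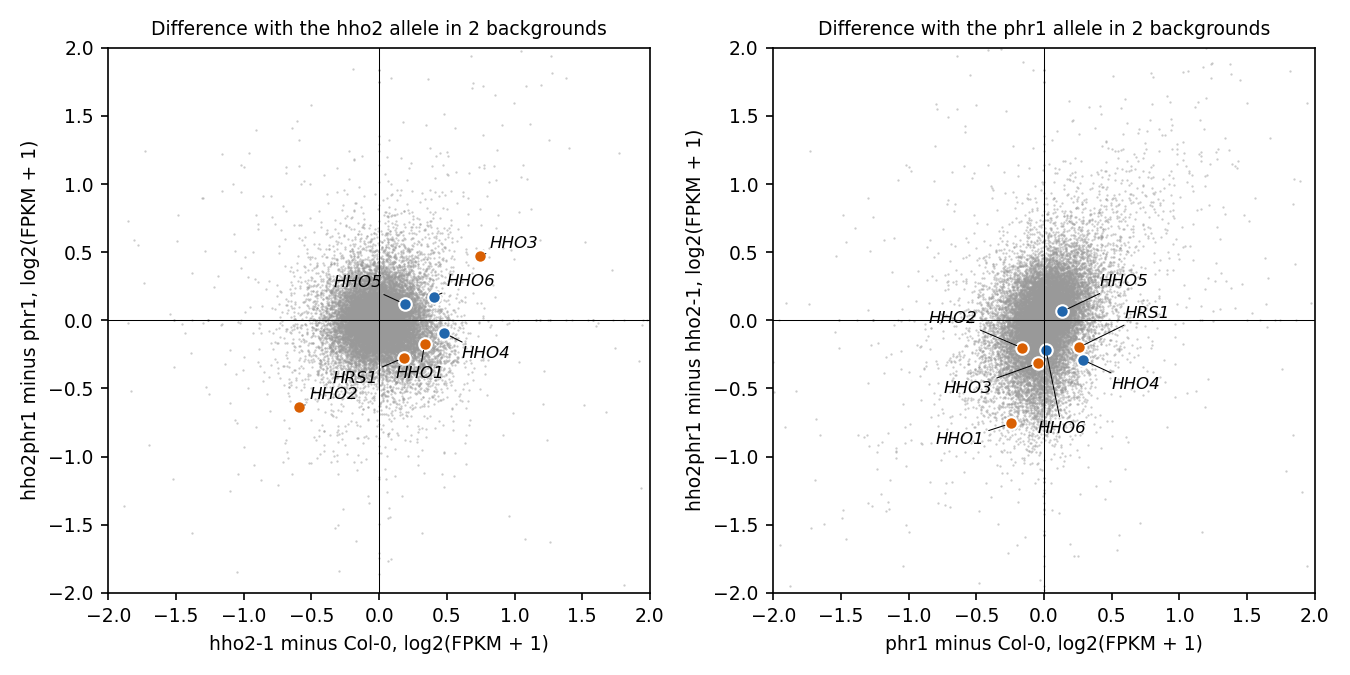
Differences in log2(FPKM + 1) with the hho2 allele (left) and the phr1 allele (right), with the background where the other gene is intact on the x axis and the background where it is mutated on the y axis. Grey points are 20650 genes, of which 117 and 133 lie outside the axes; orange points are the HRS1 group and blue points are HHO4 to HHO6. On the left HHO3 and HHO2 stand in opposite corners, and on the right HHO1 is the lowest member, at -0.25 and -0.76.

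The third comparison, phr1 against Col-0, asks whether the family differed without full PHR1 function. All 7 differences lay within 0.29 of Col-0: 4 members were above it and 3 below, beside 49.5% of all genes above, with a median of 0.01 beside 0.00 over 20323 genes. Differences ran from -0.25 for HHO1 to 0.29 for HHO4, with HHO2 at -0.16, HHO3 at -0.05, HRS1 at 0.26, HHO5 at 0.13 and HHO6 at 0.01. The sign of HHO6 turned to -0.06 when libraries were rescaled to equal sums. Neither the 2-fold mark, passed by 1.35% of all genes, nor separate intervals, found for 1.25%, were reached by any of the 7 members. In the same pair of libraries SPX1, a phosphate sensor gene that PHR1 activates, had 179.9 FPKM in phr1 and 444 FPKM in Col-0.

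The fourth comparison, hho2phr1 against hho2-1, sets the phr1 allele into hho2 mutant plants. Here 1 member was above hho2-1 and 6 were below, beside 50.7% of all genes above, with a median of -0.21 beside 0.01 over 20456 genes. HHO1 was below by -0.76 with intervals apart, HHO3 by -0.32, HHO4 by -0.29, HHO6 by -0.21, HHO2 by -0.20 and HRS1 by -0.20. HHO5 was above by 0.07, and its sign turned to -0.05 when libraries were rescaled to equal sums. At 2-fold the count was 0 members, beside 1.98% of all genes. The single member with separate intervals, HHO1, compares with 4.01% of all genes. Length moved with this comparison too, since genes under 1000 nucleotides had a median of 0.10 and those of 3500 or more -0.17, while the 3 classes that hold the members had medians from -0.03 to 0.05. Both phr1 comparisons gave the same sign for HHO2, HHO3, HHO1 and HHO5, and for 61.6% of all genes. At -0.25 or below in both were 716 genes (3.47%), a mark set by the smaller HHO1 difference, that in phr1 against Col-0. These genes need not reach -0.76, the HHO1 difference in hho2phr1 against hho2-1. The hho2-1 library enters both this comparison and the first, so the low values here and the high values there are not separate observations.

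The fifth comparison sets the double mutant hho2phr1 against wild-type Col-0. Of the 7 members 4 were above Col-0 and 3 below, beside 48.7% of all genes above. HHO2 was below by -0.80, with intervals apart, and HHO1 by -0.42. HHO3 was above by 0.42, HHO5 by 0.25, HHO6 and HHO4 by 0.19 each, and HRS1 stood at -0.02. A total of 0 members were 2-fold different, beside 1.91% of all genes, and 1 had intervals apart, beside 2.38%. The median of the 7 was 0.19, against -0.01 over 20400 genes.

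Whether the alleles add up was read from the hho2 difference in phr1 plants minus the hho2 difference in plants with PHR1 intact. All 7 members had a negative value, with a median of -0.27 beside 0.00 over all genes. It was -0.58 for HHO4, -0.51 for HHO1 and -0.46 for HRS1. HHO3 had -0.27, HHO6 -0.23, HHO5 -0.07 and HHO2 -0.04. Every interval propagated from the authors' bounds included 0, the nearest to excluding it being -1.28 to 0.12 for HHO4. As large a value in either direction was found in 8.15% of all genes for HHO4 and 10.8% for HHO1. The 7 values share the same 4 libraries and are not independent of each other.

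Summed over the 7 members, the family stood at 318 FPKM in hho2phr1, 379.7 in hho2-1, 309.6 in phr1 and 313 in Col-0. The sum in hho2-1 was 1.21 times that in Col-0, and the other mutant libraries were within 1.01 and 0.988 times. Bounds that treat the members' errors as independent were 336 to 423 FPKM in hho2-1 and 281 to 346 FPKM in Col-0, which overlap. In hho2-1 against Col-0 HHO2 differed by -30.9 FPKM and HHO3 by 75.2 FPKM, and in hho2phr1 against phr1 by -29.4 and 41.9 FPKM. HHO2 and HHO3 together stood at 201 FPKM in hho2phr1 and 188 in phr1, and at 246 in hho2-1 and 202 in Col-0.

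The make-up of the pool differed as well. HHO2 held 16.3% of the family FPKM in hho2phr1, 15.8% in hho2-1, 26.2% in phr1 and 29.0% in Col-0. HHO3 held 46.9% in hho2phr1, 49.0% in hho2-1, 34.6% in phr1 and 35.4% in Col-0. The hho2 mutant libraries thus had the lowest HHO2 shares and the highest HHO3 shares. HHO5 held 16.9% in hho2phr1, 13.5% in hho2-1, 16.0% in phr1 and 14.4% in Col-0, and HRS1 held 10.2% in hho2phr1, 9.89% in hho2-1, 12.8% in phr1 and 10.5% in Col-0. A share is a ratio within a library and does not depend on how libraries are scaled to each other. Because shares add up to the whole, a lower HHO2 level by itself raises the shares of the other members.

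**Figure D4:**
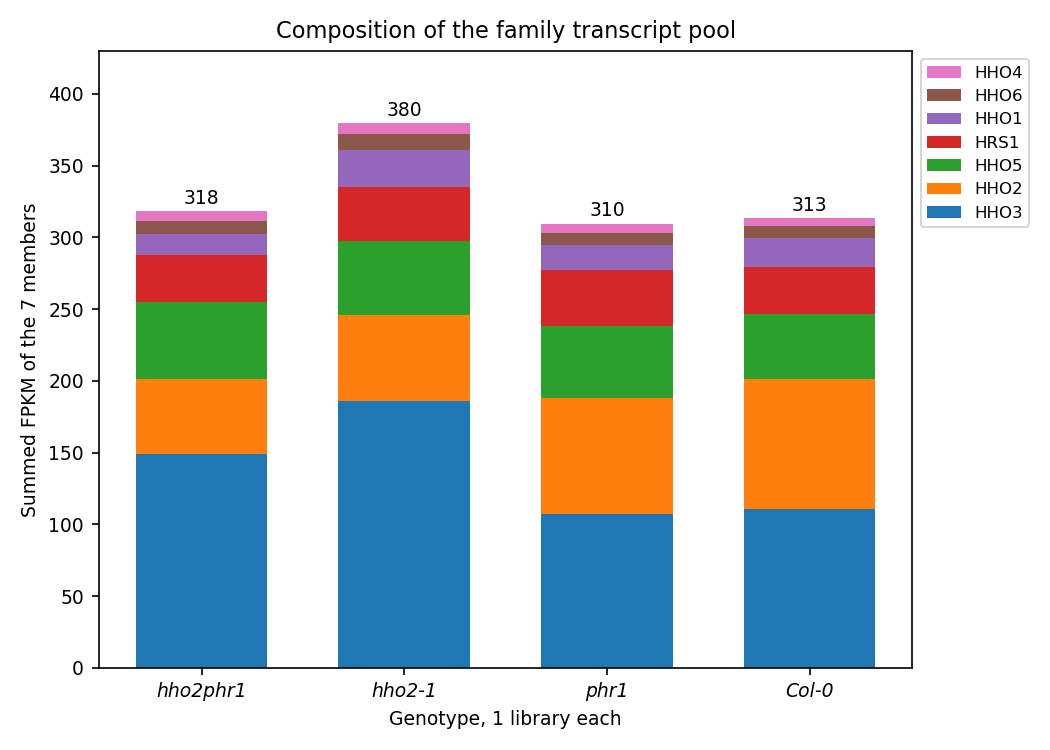
Summed FPKM of the 7 members in hho2phr1, hho2-1, phr1 and Col-0, stacked by member, 1 library per bar. The bars reach 318, 379.7, 309.6 and 313 FPKM, with HHO3 (blue) the largest block in each and HHO2 (orange) smaller in the 2 libraries with the hho2 allele.

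Among the 7 members, HHO2 and HHO3 had the least alike profiles. The distance between their 4 centred log2(FPKM + 1) values was 1.23, the largest of the 21 pairs, and the smallest was 0.222 between HHO6 and HHO4. Outside the family, 15154 genes with at least 5 FPKM in every library were compared over the same 4 libraries. Nearest to HHO2 were AT3G53235, which shares its interval with another gene, AT1G29500 and CDF2, a DOF factor gene of photoperiodic flowering, at distances of 0.0788, 0.117 and 0.151. CDF2 was at 13.3 FPKM in hho2phr1, 15.9 in hho2-1, 19.9 in phr1 and 21.3 in Col-0.

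Nearest to HHO3 were ALN, an allantoinase gene of purine breakdown, the transporter gene UMAMIT38 and PSAD-2, a subunit gene of photosystem I, at 0.161, 0.168 and 0.171. ALN was at 44.8 FPKM in hho2phr1, 55.7 in hho2-1, 34.6 in phr1 and 37.8 in Col-0. Within a distance of 0.3 lay 43 genes for HHO2 and 46 for HHO3, but 890 for HHO1. Its nearest were AT5G53880, AT1G22060, which shares its interval, and DRB3, a gene for a double-stranded RNA binding protein, at 0.0181, 0.0398 and 0.0545. Median transcript length was 2313 nucleotides for the genes within 0.3 of HHO1, 939 for those of HHO2 and 1870 for those of HHO3, beside 1718 over all genes compared. The members' own transcripts have 1507 nucleotides in HHO1 and 1853 in HHO2. The part of length in these patterns was not tested.

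Around the family, 34 genes were listed by role: 9 regulators, 11 reported targets in nitrate and phosphate nutrition, 10 nitrate response genes and 4 partners or targets of HHO4 and HHO5 in development. NRT2.4, a high-affinity nitrate transporter gene, had less than 1 FPKM in every library and was not compared. With the hho2 allele, 0 of the remaining 33 genes were 2-fold different on the log2(FPKM + 1) scale in either background. Of all genes, 1.11% were so in hho2phr1 against phr1 and 0.88% in hho2-1 against Col-0, so a count of 0 does not set the list apart. Intervals lay apart for 2 of the 33 in hho2phr1 against phr1, beside 1.09% of all genes. In hho2-1 against Col-0 they did for 0, beside 0.531%. Without a pseudocount the 2-fold count was 1 in hho2phr1 against phr1 (NRT2.5) and 1 in hho2-1 against Col-0 (FT), beside 313 and 218 of all genes. The list was chosen with earlier results of these data known. The median was 0.06 in hho2phr1 against phr1 and 0.03 in hho2-1 against Col-0, beside -0.01 and 0.00 over all genes.

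Among the regulators, NLP8, an NLP factor of nitrate signalling in germinating seed, was higher with the hho2 allele in both backgrounds. It was at 11.1 FPKM in hho2phr1 against 6.26 in phr1, with intervals apart, and at 11.4 in hho2-1 against 7.54 in Col-0. SVP, a MADS factor gene of flowering that acts upstream of HHO4, was at 112 FPKM in hho2phr1 against 124 in phr1, and at 109.8 in hho2-1 against 125 in Col-0.

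Among the targets, NRT2.5, a high-affinity nitrate transporter gene, had the largest differences in the 2 hho2 comparisons. It was at 3.20 FPKM in hho2phr1 against 1.32 in phr1, with intervals apart, and at 3.1 in hho2-1 against 1.75 in Col-0. NRT2.1, the main high-affinity nitrate transporter gene of roots, was at 3.74 FPKM in hho2phr1, 3.34 in hho2-1, 2.09 in phr1 and 4.20 in Col-0. The low library was phr1, whose interval lay apart from that of Col-0. The phosphate transporter gene PHT1;1, whose near-identical paralogs can share its reads, was the lowest target, with -0.27 in hho2phr1 against phr1 and -0.31 in hho2-1 against Col-0. SPX1 had 179 FPKM in hho2phr1 and 179.9 FPKM in phr1. It had 456 FPKM in hho2-1 and 444 FPKM in Col-0, so that its level went with the phr1 allele.

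In hho2-1 against Col-0 the 10 nitrate response genes lay between -0.18 for BT2 and 0.23 for NIA1. In hho2phr1 against phr1, 9 of 10 were above 0, beside 48.4% of all genes. The exception was TGA1, a bZIP factor gene, at -0.02. NIA2, a nitrate reductase gene, was at 300.3 FPKM in hho2phr1 and 212 FPKM in phr1. In hho2-1 against Col-0, 6 of 10 were above 0, beside 50.3% of all genes. The count was also 8 of 10 in phr1 against Col-0, hho2phr1 against hho2-1 and hho2phr1 against Col-0. The shares of all genes there were 49.5%, 50.7% and 48.7%, so a high count was not particular to the hho2 comparisons. The nitrate reductase gene NIA1 was at 108 FPKM in hho2phr1 against 66.4 in Col-0, with intervals apart, and BT2, a BTB and TAZ domain gene, at 108 in hho2phr1 against 64.3 in hho2-1, likewise apart. In the development list, FT was at 1.92 FPKM in hho2phr1 against 1.05 in phr1 and at 4.68 in hho2-1 against 2.33 in Col-0. It was also lower in hho2phr1 than in hho2-1, with intervals apart. ULT1, a floral meristem gene whose product binds HHO5, was lower by -0.37 in hho2phr1 against phr1 and by -0.08 in hho2-1 against Col-0.

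**Figure D5:**
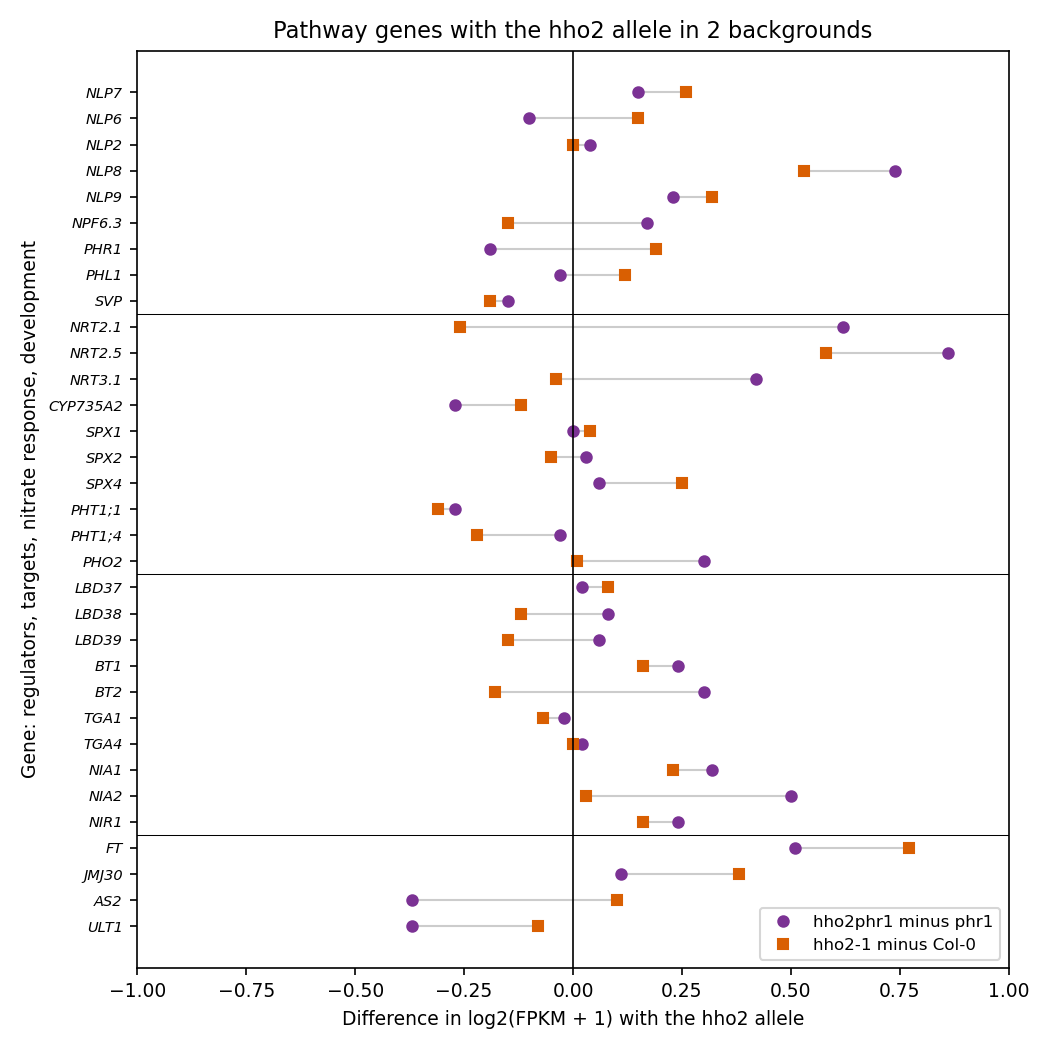
Difference in log2(FPKM + 1) with the hho2 allele for 33 genes around the family, in hho2phr1 minus phr1 (circles) and hho2-1 minus Col-0 (squares), with lines between the roles. NRT2.5, NLP8 and FT lie to the right by more than 0.5 in both backgrounds, at 0.86, 0.74 and 0.51 (circles) and 0.58, 0.53 and 0.77 (squares), while NRT2.1 lies on opposite sides, at 0.62 and -0.26.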

How the data were processed

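TopHat2 2.0.11, Cuffdiff 2.2.1 and the TAIR10 build are named in the submitters' processing notes. How Cuffdiff was set to scale libraries, to handle strand and to model spread without replicates is not given in the sources used here. The deposited values are FPKM per gene and library with a 95% interval, per the file headers. Columns were matched to genotypes by name.

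Differences are log2(FPKM + 1), first-named genotype minus the second, for genes with at least 1 FPKM in either library. The pseudocount of 1 shrinks differences of low genes. A difference of at least 1 counts as 2-fold. The members and lists were chosen with earlier results of these data known. Named genes are all members, listed genes past 2-fold or with intervals apart or farthest in either hho2 comparison within their role, and the 3 nearest profiles per member with a range of at least 0.5.

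Depth was estimated from 365 to 396 genes whose low FPKM step by whole fragments, within 0.03 of a whole number for 98.9% to 99.2%. None of the members had a failed status or shared its interval. Sequences were read from RefSeq TAIR10.1, whose coding span lay inside the deposited interval for 95.9% of 26687 genes. TAIR10.1 gene starts lie upstream of the deposited ones for these genes, and fragment numbers use TAIR10.1 transcript lengths. Coding sequences were aligned with Biopython 1.88. Protein sequences were not used here.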

Additional observations from a re-analysis of the deposited data

Results flagged for a closer look

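For 4 members the difference with 1 allele pointed opposite ways in the 2 backgrounds of the other allele, 3 members per allele. Opposite signs are common here: the same sign was found in 48.6% of all genes for hho2 and 61.6% for phr1, so these counts do not set the members apart. With hho2, HRS1, HHO1 and HHO4 were lower in hho2phr1 than in phr1 but higher in hho2-1 than in Col-0. The difference between the 2 effects was -0.46 for HRS1, -0.51 for HHO1 and -0.58 for HHO4. With phr1, HRS1, HHO4 and HHO6 were lower in hho2phr1 than in hho2-1 but higher in phr1 than in Col-0, which gives the same -0.46 and -0.58 and, for HHO6, -0.23. HHO6 loses this pattern after rescaling to equal sums, where its difference in phr1 against Col-0 is -0.06. HHO5 gains the pattern under the same rescaling, with 0.05 in phr1 against Col-0 and -0.05 in hho2phr1 against hho2-1. Among the named genes around the family, the same held with hho2 for PHR1 (-0.38), NRT2.1 (0.88) and BT2 (0.48), and with phr1 for SVP (0.04), NRT2.1 (0.88) and NRT2.5 (0.28). These differences between effects were not tested, since each rests on 4 single libraries, and the propagated intervals of the members all include 0.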

How the results depend on the processing

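The 35 member differences moved by at most 0.12 under the alternatives that can change them, which are other pseudocounts and other scalings, and HHO6 and HHO5 changed sign as given above. Filters and fold marks change counts only. A 1.5-fold mark counted 2 members in hho2-1 against Col-0 (HHO2 and HHO3), beside 495 of 20341 genes. It counted 1 each in hho2phr1 against phr1 (HHO2), hho2phr1 against hho2-1 (HHO1) and hho2phr1 against Col-0 (HHO2). Beside these stood 716 of 20353, 1655 of 20456 and 1090 of 20400 genes. In each of these comparisons 2-fold counted 0 members. Rescaling to equal sums left 0 members with intervals apart in hho2phr1 against phr1. It shifted the median of all genes in hho2phr1 against hho2-1 to -0.10 and the share of 2-fold genes that were higher to 49.4%, against 63.8%. The window of 1000 bases, chosen after the data had been seen, held GAATATTC in 4 members, against 2 for 300 bases. In the order of the 5 comparisons, 2-fold genes numbered 179, 225, 274, 406 and 390 as reported. They numbered 292, 365, 440, 750 and 641 with a pseudocount of 0.1, and 495, 716, 709, 1655 and 1090 at 1.5-fold. With at least 5 FPKM they numbered 91, 128, 169, 270 and 265, and without a pseudocount 218, 313, 389, 704 and 580. At 1.5-fold the share of higher genes in the fourth was 46.9%. No paired analysis was possible because each genotype has 1 library.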
